A study of Rattus norvegicus with 21 samples.

Results

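Cells of the line pCTSH1 were compared with cells of the line pcDNA after 16 h of cytokine treatment. The comparison used 6 of the 21 arrays of the series, chosen by their labels as the 3 pCTSH1 and the 3 pcDNA arrays at 16 h, over 31042 probe sets without the control probe sets. INS-1 is a rat insulinoma line that makes insulin and stands in for pancreatic beta cells in culture. Per the labels, pCTSH1 is 1 clone derived from INS-1 that stably overexpresses cathepsin H (CTSH) from a plasmid, and pcDNA cells carry the empty vector. Both lines received 150 pg/ml recombinant mouse IL-1β together with 5 ng/ml recombinant rat IFNγ for 16 h, so cytokines were common to both groups. The same lines at 0 h, without cytokines, and at 6 h gave 3 arrays per group, and their values serve to place those at 16 h. All 21 arrays, untransfected INS-1 cells at 0 h among them, entered the shared spread behind the SEs and p-values of the main fit. Since the overexpressing line is 1 clone, the clone and the transgene cannot be told apart in any difference below. The labels number the samples of a group without stating whether they came from separate cultures, and the p-values therefore measure the spread between these arrays.

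Cathepsin H is a lysosomal cysteine protease, and the human gene lies in a region associated with type 1 diabetes. IL-1β acts through NF-kB and IFNγ through the JAK-STAT pathway, and in beta cells the combination is known to induce chemokines, antigen presentation genes, stress genes and cell death. Rac2, which the title of the study names, is a small GTPase known mainly from blood cells, where it controls actin and activates the phagocyte NADPH oxidase. The comparison at 16 h asks which genes differed between the clone and the empty vector line after prolonged exposure to the cytokines.

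All values are log2 probe set intensities, and a difference is pCTSH1 minus pcDNA, so 1 unit is a doubling. A gene was represented by its brightest probe set, and it was called when the Benjamini-Hochberg adjusted p of limma's moderated test over all probe sets was below 0.05. At 16 h, 710 of 13438 genes were called (5.28%), 446 higher (3.32%) and 264 lower (1.96%) in pCTSH1 cells. Over probe sets, 1181 of 31042 were called at 16 h (3.8%), 722 higher (2.33%) and 459 lower (1.48%), beside 582 at 0 h (1.87%) and 887 at 6 h (2.86%). Among the 710 genes the difference was at least 1 in size for 47, and the median size was 0.51. In a fit of the 6 arrays alone, which takes the spread from these arrays only, 121 of the 710 genes were called, and 126 genes in all. The arrays of the 2 groups did not overlap for 692 of the 710, while 20.9% of all genes had arrays that did not overlap. In these bulk samples, fewer cells expressing a gene and less RNA per cell cannot be told apart.

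Array medians ranged from 4.88 to 5.08 over the series, and between 61.4% and 71.0% of probe sets lay above the brightest nonspecific control of their array. Replicates at 16 h were farther apart than those at 6 h. Subtracting 1 replicate from another left an SD over probe sets of 0.24 to 0.31 among pCTSH1 arrays and 0.24 to 0.28 among pcDNA arrays at 16 h, against 0.19 to 0.22 in both lines at 6 h. Leaving out pcDNA replicate 2 lowered the number of called genes to 450, and leaving out pcDNA replicate 1 lowered it to 468. Beta cell identity was present in both lines at 16 h, with none of 9 measured beta cell markers at the level of the nonspecific controls. Their mean level lay between 10.09 and 10.32 on pCTSH1 arrays and between 10.09 and 10.15 on pcDNA arrays.

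The transfected gene itself was not called. Rat Ctsh measured 5.08, 4.15 and 4.11 on the pCTSH1 arrays, against 4.18, 3.50 and 3.71 on the pcDNA arrays. The highest pcDNA array lay above the lower pair of pCTSH1 arrays, and 1 pCTSH1 and 2 pcDNA arrays did not exceed the nonspecific controls. The difference was 0.66 ± 0.20 (SE) with an adjusted p of 0.08, and it was 0.10 at 0 h and 0.40 at 6 h, neither called. The single Ctsh probe set is a rat one, and the labels do not give the species of the transfected sequence. The groups are therefore named by their labels. Lysosomal proteases and hydrolases, 32 measured, had 1 member lower and none higher (3.12% called, against 5.28% of all genes). That member was Ctsl, cathepsin L, at 10.31, 10.30 and 10.29 in pCTSH1 cells, against 10.72, 10.93 and 10.77 in pcDNA cells, a difference of -0.51 ± 0.07 (adjusted p = 0.000127).

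The promoters of the highest and lowest genes open the description, since both cytokine pathways act through known DNA motifs. Sequence was matched in RefSeq's promoter table (GRCr8, 250 bases before to 50 after the start) for 15 of the 20 genes with the highest difference and for 17 of the 20 with the lowest. Nox1 had the second highest difference and Ptgs1 the lowest, and their promoters are printed here 5′ to 3′ with a match to the kappa B letters (GGGA, any 4 bases, CC) in capitals.
Nox1 promoter, GRCr8 chrX:101595471-101595770, minus strand: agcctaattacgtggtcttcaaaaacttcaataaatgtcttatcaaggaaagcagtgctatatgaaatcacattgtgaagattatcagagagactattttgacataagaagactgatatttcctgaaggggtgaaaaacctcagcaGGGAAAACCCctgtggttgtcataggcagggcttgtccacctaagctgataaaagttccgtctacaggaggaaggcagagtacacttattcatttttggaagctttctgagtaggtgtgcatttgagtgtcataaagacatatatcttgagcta
Ptgs1 promoter, GRCr8 chr3:39981169-39981468, plus strand: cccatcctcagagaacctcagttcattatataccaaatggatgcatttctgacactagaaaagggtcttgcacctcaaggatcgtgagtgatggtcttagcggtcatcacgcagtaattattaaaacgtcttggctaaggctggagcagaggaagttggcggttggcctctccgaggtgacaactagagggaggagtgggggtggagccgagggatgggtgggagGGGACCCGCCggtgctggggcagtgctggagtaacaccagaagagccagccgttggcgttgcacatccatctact
The match lay 104 bases before the start of Nox1 and 25 bases before that of Ptgs1, counted from the first base of the match. Searched on both strands, the kappa B letters were in 9 of 15 promoters of the highest genes and in 3 of 17 of the lowest, and in 19.6% of 27457 rat promoters of the same length. The interferon element ISRE (GAAA, any 2 bases, GAAA) was in none of either group, against 3.77%. AP-1 letters, TGANTCA, were in 2 of each, against 7.33%, and the CRE letters TGACGTCA were in the promoter of Ppargc1a alone of the 32 matched, against 1.91%. A stretch of bases that matched more than 1 motif counted for each. These are matches of letters in a fixed window, with no test of binding.

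The 20 highest genes at 16 h differed by 1.11 to 2.56 and the 20 lowest by -3.30 to -0.99. All 40, which were chosen on the same 6 arrays, remained called whichever of these arrays was left out. In the fit of the 6 arrays alone 19 of the 20 highest and 17 of the 20 lowest were called. Ntm, a neural adhesion protein, was the exception among the highest genes (adjusted p = 0.0725 there). Blnk, Abcb1a and Bend5 were the exceptions among the lowest.

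**Figure D1:**
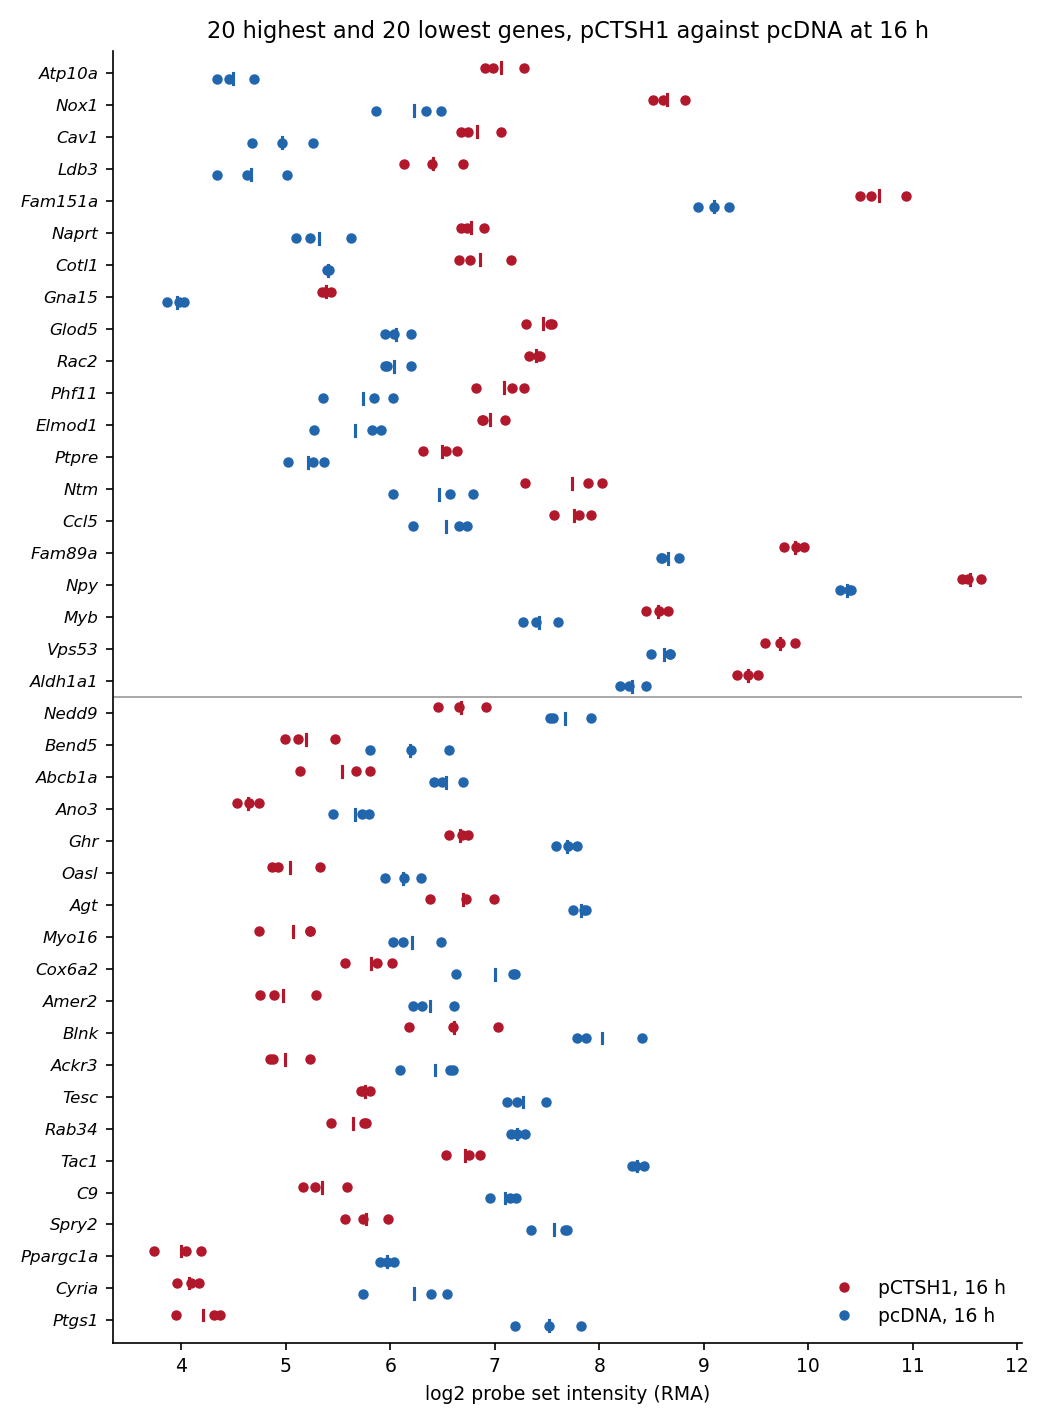
Log2 intensity (x axis) on each of the 3 arrays of pCTSH1 cells (red, upper row of each gene) and pcDNA cells (blue, lower row) at 16 h for the 20 highest genes (above the line) and the 20 lowest (below it). Short bars are means; the dots of the 2 lines do not overlap for any of these genes, by the rule that chose them.

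Rac2 was higher in pCTSH1 cells. Its level was 7.33, 7.42 and 7.44 on pCTSH1 arrays, against 5.97, 6.20 and 5.95 on pcDNA arrays. Each pCTSH1 array lay above each pcDNA array, and the spread within a line was small beside the gap. The difference was 1.36 ± 0.19 (SE), or 2.56-fold, with an adjusted p of 0.000231 and of 0.00247 in the 6 arrays alone. The title of the study names Rac2, so its direction here is not independent evidence. Of 25 measured Rac and actin switch genes, 5 were higher and 1 lower (24.0% called, against 5.28% of all genes). The median over the list was 0.07, against -0.01 over all genes. Rac1, the ubiquitous relative of Rac2, averaged 11.65 ± 0.10 in pCTSH1 cells and 11.31 ± 0.04 in pcDNA cells (SD, n = 3 each), a difference of 0.34 (adjusted p = 0.00695). Limk1, a kinase that phosphorylates cofilin downstream of Rac, was higher by 0.70 (adjusted p = 0.000154). Vav2, an exchange factor for Rac, was higher by 0.31 with an adjusted p of 0.0458, and it lost its call whichever array was left out. Rhoq, the GTPase TC10, fell by 0.28 on the log2 scale (adjusted p = 0.0244), a call kept only without pcDNA replicate 2. Rac1 and Limk1 lie in a stretch of chromosome 12 whose genes were higher as a group, described at the end.

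Among 8 measured NADPH oxidase subunits, Nox1 was the 1 called member (12.5% called, against 5.28% of all genes). Nox1 is a catalytic subunit that makes superoxide and can work with Rac GTPases. It measured 8.51, 8.82 and 8.61 in pCTSH1 cells, against 5.86, 6.34 and 6.48 in pcDNA cells. The lowest pCTSH1 array was above the highest pcDNA array by more than either line's own range. This was a difference of 2.42 ± 0.18, or 5.34-fold (adjusted p = 1.27e-07). Of the other subunits, Cybb averaged 4.37 in pCTSH1 and 4.15 in pcDNA cells, Nox4 4.41 and 4.31 in the same order, and Ncf1 and Ncf4 did not exceed the nonspecific controls on any of the 6 arrays.

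The highest difference of all belonged to Atp10a, a phospholipid flippase, at 6.98, 6.91 and 7.28 in pCTSH1 cells, against 4.35, 4.70 and 4.45 in pcDNA cells. The difference was 2.56 ± 0.13, or 5.89-fold (adjusted p = 7.43e-10), beside 2.75 at 0 h, also called. Its other probe set, dim at 3.59 in pCTSH1 and 3.83 in pcDNA cells, was not called. Cav1, the coat protein of caveolae, followed with 6.75, 6.68 and 7.06 in pCTSH1 cells, against 4.68, 4.96 and 5.26 in pcDNA cells. Both of its other probe sets were also called higher, by 0.57 and 0.82. Ldb3, a protein of the striated muscle Z-disc, was higher by 1.75, and Naprt, which starts NAD synthesis from nicotinic acid, by 1.46. Their differences at 0 h, 0.99 for Ldb3 and 1.54 for Naprt, were called as well. Of the other probe sets, 2 of 5 were called higher for Ldb3, and the single one for Naprt was not called (0.09).

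Like Atp10a, Ldb3 and Naprt, other genes among the highest were already apart without cytokines. Fam151a measured 10.60, 10.49 and 10.94 in pCTSH1 cells, against 9.10, 8.95 and 9.25 in pcDNA cells, and its difference was 1.58 both at 16 h and at 0 h. Npy, neuropeptide Y, measured 11.65, 11.53 and 11.47 in pCTSH1 cells, against 10.41, 10.30 and 10.39 in pcDNA cells. Its difference of 1.18 stood beside 1.08 at 0 h. Aldh1a1, which makes retinoic acid, was higher by 1.11 at 16 h and by 1.39 at 0 h. Cotl1, an actin-binding protein, was higher by 1.45 at 16 h and 0.95 at 0 h, and the receptor-type phosphatase Ptpre by 1.28 and 0.87. In all, 12 of the 20 highest genes were also called higher at 0 h (13, with Cav1, when the replicate number was a block), and 15 of the 20 at 6 h.

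Ptgs1, cyclooxygenase 1, had the lowest difference. It measured 3.95, 4.37 and 4.31 in pCTSH1 cells, against 7.20, 7.52 and 7.83 in pcDNA cells, a difference of -3.30 ± 0.14 (adjusted p = 5.82e-11), or 9.88-fold lower. In pCTSH1 cells 1 of the 3 arrays did not exceed the nonspecific controls. Its other probe set, at 4.03 in pCTSH1 and 4.28 in pcDNA cells, was not called. Ptgs2, the inducible cyclooxygenase, was not called.

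Cyria, a Rac1-binding protein that restrains actin branching, measured 3.96, 4.10 and 4.17 in pCTSH1 cells, against 6.40, 6.54 and 5.74 in pcDNA cells. On 2 of 3 pCTSH1 arrays it did not exceed the nonspecific controls, and it was at least 4.28-fold lower (adjusted p = 1.85e-07). Such lower bounds set the mean of the brighter line against, on each array of the dimmer line, the higher of the brightest nonspecific control and the probe set's own value. Ppargc1a, the coactivator PGC-1alpha of mitochondrial genes, measured 3.74, 4.05 and 4.19 in pCTSH1 cells, against 5.97, 5.90 and 6.03 in pcDNA cells, and was at least 3.56-fold lower (adjusted p = 2.66e-06). Both genes were thus present on all pcDNA arrays and at or near the controls in pCTSH1 cells.

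Spry2, an inhibitor of receptor tyrosine kinase signalling, measured 5.57, 5.98 and 5.74 in pCTSH1 cells, against 7.69, 7.67 and 7.35 in pcDNA cells, a difference of -1.81 ± 0.13 (adjusted p = 1.27e-07). C9, a component of the complement membrane attack complex, measured 5.17, 5.28 and 5.58 in pCTSH1 cells, against 6.95, 7.20 and 7.15 in pcDNA cells. Tac1, the precursor of substance P, measured 6.75, 6.86 and 6.54 in pCTSH1 cells, against 8.35, 8.43 and 8.31 in pcDNA cells. All pcDNA arrays lay above all pCTSH1 arrays for these 3 genes, as the rule that chose them required. Ackr3, a scavenging receptor for chemokines, fell by 1.43 on the log2 scale, and Blnk, an adaptor of the B cell receptor, fell by 1.42. Agt, the angiotensin precursor, fell by 1.13, the growth hormone receptor Ghr by 1.03 and the drug exporter Abcb1a by 1.00, where its second probe set gave -0.96. Of the 7 lowest genes with more than 1 probe set, 3 (Ghr, Abcb1a and Nedd9) had another one called lower. Rab34, a small GTPase, fell by 1.57 (log2) on its brightest probe set, while the other gave -0.31 and was not called.

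The difference between the lines changed with time for some of these genes. Of the 710 called genes, 176 were also called in the same direction at 0 h, which is 51.2% of the 344 genes called then (2.56% of all). At 6 h 221 were called in the same direction, or 41.2% of the 536 called then (3.99% of all). A further 439 were called at neither time, and 6 in the opposite direction at 0 or 6 h. A call at 16 h alone does not show a change in the difference, which was tested directly as the difference at 16 h minus that at 0 h or 6 h. The first was called for 31 of the 710 genes (37 of all genes, 0.275%) and the second for 31 (50 of all genes, 0.372%). Only 17 of the 439 genes called at neither earlier time had a called change from 0 h. Over probe sets the counts were 66 (0.213%) for the change from 0 h and 83 (0.267%) for that from 6 h. Both tests use the arrays at 16 h and so share them with the main comparison.

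**Figure D2:**
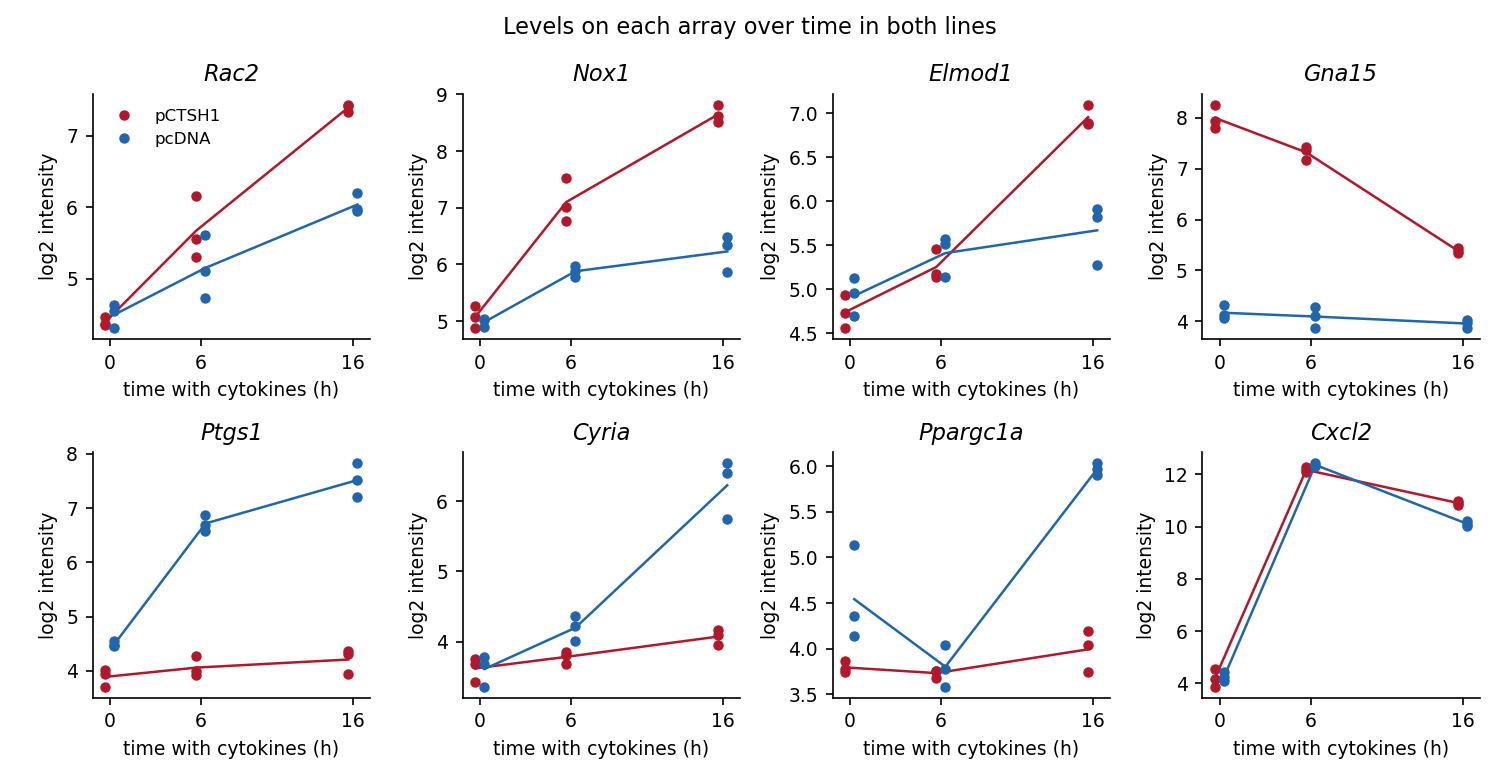
Log2 intensity on each array (dots, 3 per line and time) against hours with cytokines for pCTSH1 (red) and pcDNA (blue), with lines through the means. For Nox1 and Rac2 the dots of the 2 lines lie together at 0 h and apart at 16 h, for Gna15 they are farthest apart at 0 h, and for Ptgs1, Cyria and Ppargc1a the pcDNA dots alone are well above 5 at 16 h.

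Nox1 averaged 5.07 ± 0.19 in pCTSH1 cells and 4.98 ± 0.08 in pcDNA cells at 0 h (SD, n = 3 each). At 6 h it averaged 7.10 ± 0.39 in pCTSH1 and 5.88 ± 0.10 in pcDNA cells, and at 16 h 8.65 ± 0.16 and 6.23 ± 0.33 in the same order. Its mean was higher at each later time in both lines, and the change in the difference from 0 to 16 h was 2.33 ± 0.25 (SE, adjusted p = 0.000105). Rac2 averaged 4.40 ± 0.06 in pCTSH1 and 4.50 ± 0.17 in pcDNA cells at 0 h, and 5.68 ± 0.44 in pCTSH1 and 5.15 ± 0.44 in pcDNA cells at 6 h. At 16 h the means were 7.40 ± 0.06 in pCTSH1 and 6.04 ± 0.14 in pcDNA cells. The change in the Rac2 difference from 0 h was 1.46 ± 0.27 (adjusted p = 0.0217), and 7 of the 12 fits that left out 1 array at 0 or 16 h lost this call. The Rac2 differences at 0 h (-0.10) and 6 h (0.52) were not called.

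Elmod1, a GTPase-activating protein of the Arf family, averaged 4.74 ± 0.19 in pCTSH1 and 4.93 ± 0.22 in pcDNA cells at 0 h. At 6 h it averaged 5.25 ± 0.17 in pCTSH1 and 5.41 ± 0.23 in pcDNA cells, and at 16 h 6.95 ± 0.12 in pCTSH1 and 5.67 ± 0.35 in pcDNA cells. Its difference changed by 1.47 from 0 h and by 1.44 from 6 h, both called. Vps53, a subunit of a complex that returns vesicles from endosomes to the Golgi, had differences of 0.17 at 0 h, 0.15 at 6 h and 1.11 at 16 h. Myb, a transcription factor of blood cell progenitors, had differences of -0.03, 0.63 and 1.13 at the same times. Cav1 had differences of 0.58, 0.81 and 1.86, and its change from 0 h (1.28, adjusted p = 0.0352) was lost in 10 of 12 fits that left out 1 array.

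Gna15, an alpha subunit of the Gq family of G proteins, ran the other way. It averaged 8.0 ± 0.24 in pCTSH1 and 4.17 ± 0.14 in pcDNA cells at 0 h, and 7.32 ± 0.14 in pCTSH1 and 4.09 ± 0.21 in pcDNA cells at 6 h. At 16 h it averaged 5.39 ± 0.05 in pCTSH1 and 3.96 ± 0.08 in pcDNA cells, where no pcDNA array exceeded the nonspecific controls, so that it was at least 2.50-fold higher. The difference at 16 h minus that at 0 h was -2.40 ± 0.17 (SE). Ttn, the muscle protein titin, did likewise, with differences of 2.84 at 0 h, 1.65 at 6 h and 0.91 at 16 h. Its pcDNA arrays were at the controls on 3 of 3 arrays at 0 h, 2 of 3 at 6 h and 3 of 3 at 16 h, so each of these differences is set against values at the level of the controls, and at 16 h Ttn was at least 1.5-fold higher.

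Ptgs1 averaged 3.89 ± 0.16 in pCTSH1 and 4.49 ± 0.04 in pcDNA cells at 0 h, and 4.06 ± 0.18 in pCTSH1 and 6.72 ± 0.15 in pcDNA cells at 6 h. At 16 h the means were 4.21 ± 0.23 in pCTSH1 and 7.52 ± 0.32 in pcDNA cells. Its mean was thus higher at each later time in pcDNA cells, and it lay near the controls in pCTSH1 cells throughout. Cyria averaged 3.62 ± 0.17 in pCTSH1 and 3.61 ± 0.22 in pcDNA cells at 0 h, 3.79 ± 0.09 and 4.20 ± 0.18 at 6 h, and 4.07 ± 0.10 and 6.23 ± 0.43 at 16 h, in the same order. Ppargc1a averaged 3.80 ± 0.06 in pCTSH1 and 4.54 ± 0.52 in pcDNA cells at 0 h, and 3.73 ± 0.05 in pCTSH1 and 3.80 ± 0.23 in pcDNA cells at 6 h, before 3.99 ± 0.23 in pCTSH1 and 5.97 ± 0.07 in pcDNA cells at 16 h. The change in its difference was called from 6 h (-1.90 ± 0.27, adjusted p = 0.00207) and not from 0 h.

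**Figure D3:**
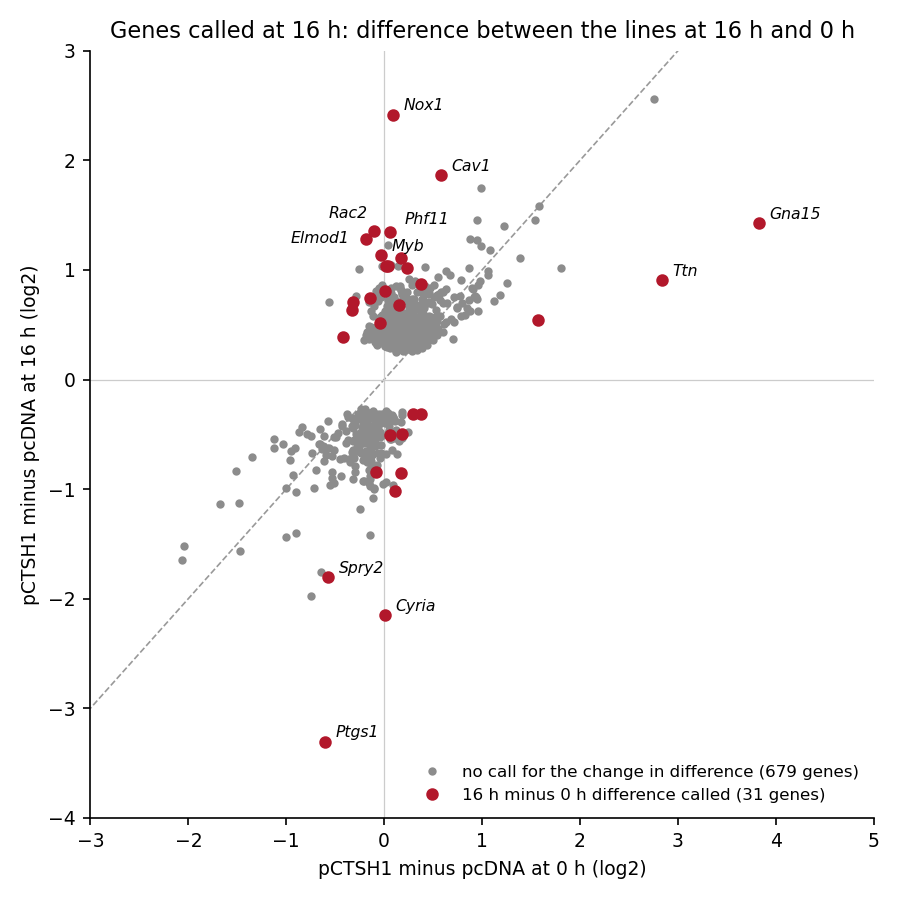
Difference pCTSH1 minus pcDNA (log2) at 0 h on the x axis and at 16 h on the y axis for the 710 genes called at 16 h, with the dashed line marking equal differences. Red dots are the 31 genes whose change in difference from 0 to 16 h was called; Nox1, Rac2 and Elmod1 lie above x values near 0, Gna15 and Ttn far to the right, and Cyria below 0 on the y axis.

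The cytokine pathways were compared through gene lists, each described by its counts beside the 5.28% of all genes called and the median of -0.01 over all genes. Of 30 measured NF-kB targets and regulators none was called, with a median of 0.06. Nfkbia, the feedback inhibitor of NF-kB, averaged 11.50 ± 0.09 in pCTSH1 and 11.18 ± 0.15 in pcDNA cells, a difference of 0.31 (adjusted p = 0.0733). Among 29 chemokines and cytokines, 4 were higher and none lower (13.8% called), with a median of 0.13. Cxcl2, which attracts neutrophils, measured 10.83, 10.96 and 10.91 in pCTSH1 cells, against 10.09, 10.21 and 10.01 in pcDNA cells. The difference was 0.80 ± 0.14 (adjusted p = 0.00165), with groups that did not overlap. Its relative Cxcl3 was higher by 0.68 (adjusted p = 2.05e-05), with 2 of its 4 other probe sets also called higher and the remaining pair between 3.59 and 3.60 in pCTSH1 and between 3.69 and 3.75 in pcDNA cells. Cxcl1 was higher by 0.52 (adjusted p = 0.00816), and Ccl5, which attracts T cells, by 1.23 (adjusted p = 0.00256).

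These chemokines were near the controls at 0 h in both lines. Cxcl2 averaged 12.16 ± 0.10 in pCTSH1 and 12.36 ± 0.06 in pcDNA cells at 6 h, and 10.90 ± 0.06 in pCTSH1 and 10.10 ± 0.10 in pcDNA cells at 16 h. Cxcl1 averaged 12.97 ± 0.03 in pCTSH1 and 13.07 ± 0.04 in pcDNA cells at 6 h, and 12.14 ± 0.12 and 11.62 ± 0.18 at 16 h in the same order. The level of both was lower at 16 h than at 6 h in each line. The difference between the lines at 16 h minus that at 6 h was called for Cxcl2 (0.99, adjusted p = 0.0326) and Cxcl3 (0.63, adjusted p = 0.0111). For Cxcl2 the call was lost in 10 of 12 fits that left out 1 array, and for Cxcl3 in none.

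Interferon targets had 5 members higher and 1 lower of 38 measured (15.8% called), with a median of 0.18. Ifit2, an antiviral RNA-binding protein, measured 5.51, 5.82 and 6.30 in pCTSH1 cells, against 4.58, 4.65 and 5.29 in pcDNA cells, a difference of 1.03 (adjusted p = 0.00458). Oas1b, of the oligoadenylate synthetase family, was higher by 0.75 and Samd9l, an antiviral factor, by 0.94. Zbp1, a sensor of nucleic acids in the Z form, was higher by 1.01 and Ifit3 by 0.79, and these calls were lost in 3 and 5 of the 6 fits that left out 1 array. The lower member was Oasl, at 5.33, 4.87 and 4.93 in pCTSH1 cells, against 6.13, 5.95 and 6.30 in pcDNA cells (-1.08, adjusted p = 0.00522). In the fit of the 6 arrays alone only Oasl of these 6 was called.

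MHC class I and immunoproteasome genes had no call among 17 measured, with a median of 0.0045. In the class II list, 1 of 7 was called (14.3%), Ciita, the transactivator of class II genes. Ciita measured 7.02, 7.44 and 7.35 in pCTSH1 cells, against 6.49, 6.56 and 6.66 in pcDNA cells, a difference of 0.70 (adjusted p = 0.000632). Its change from 0 h was called as well (1.02, adjusted p = 0.00544), where the difference had been -0.32. The median over the class II list was 0.47. RT1-Ba averaged 10.72 ± 0.18 in pCTSH1 and 10.07 ± 0.36 in pcDNA cells, and Cd74, the invariant chain, 12.03 ± 0.02 and 11.65 ± 0.20 in the same order, neither of which was called.

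Cytokine receptors and JAK-STAT genes had 1 member higher and 1 lower of 36 (5.56% called). Irak3, a negative regulator of IL-1 receptor signalling, averaged 7.29 ± 0.32 in pCTSH1 and 8.26 ± 0.19 in pcDNA cells (-0.97, adjusted p = 0.0308). Stat5a was higher by 0.59 (adjusted p = 0.0324). The calls of Irak3 and Stat5a were lost in 5 and 3 of the 6 fits that left out 1 array. Of 15 nitric oxide and arginine genes none was called. Nos2, the inducible nitric oxide synthase, measured 4.87, 5.60 and 5.42 in pCTSH1 cells, against 4.49, 5.09 and 4.41 in pcDNA cells. The lowest pCTSH1 array lay below the highest pcDNA array, and the difference of 0.63 had an adjusted p of 0.0543.

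**Figure D4:**
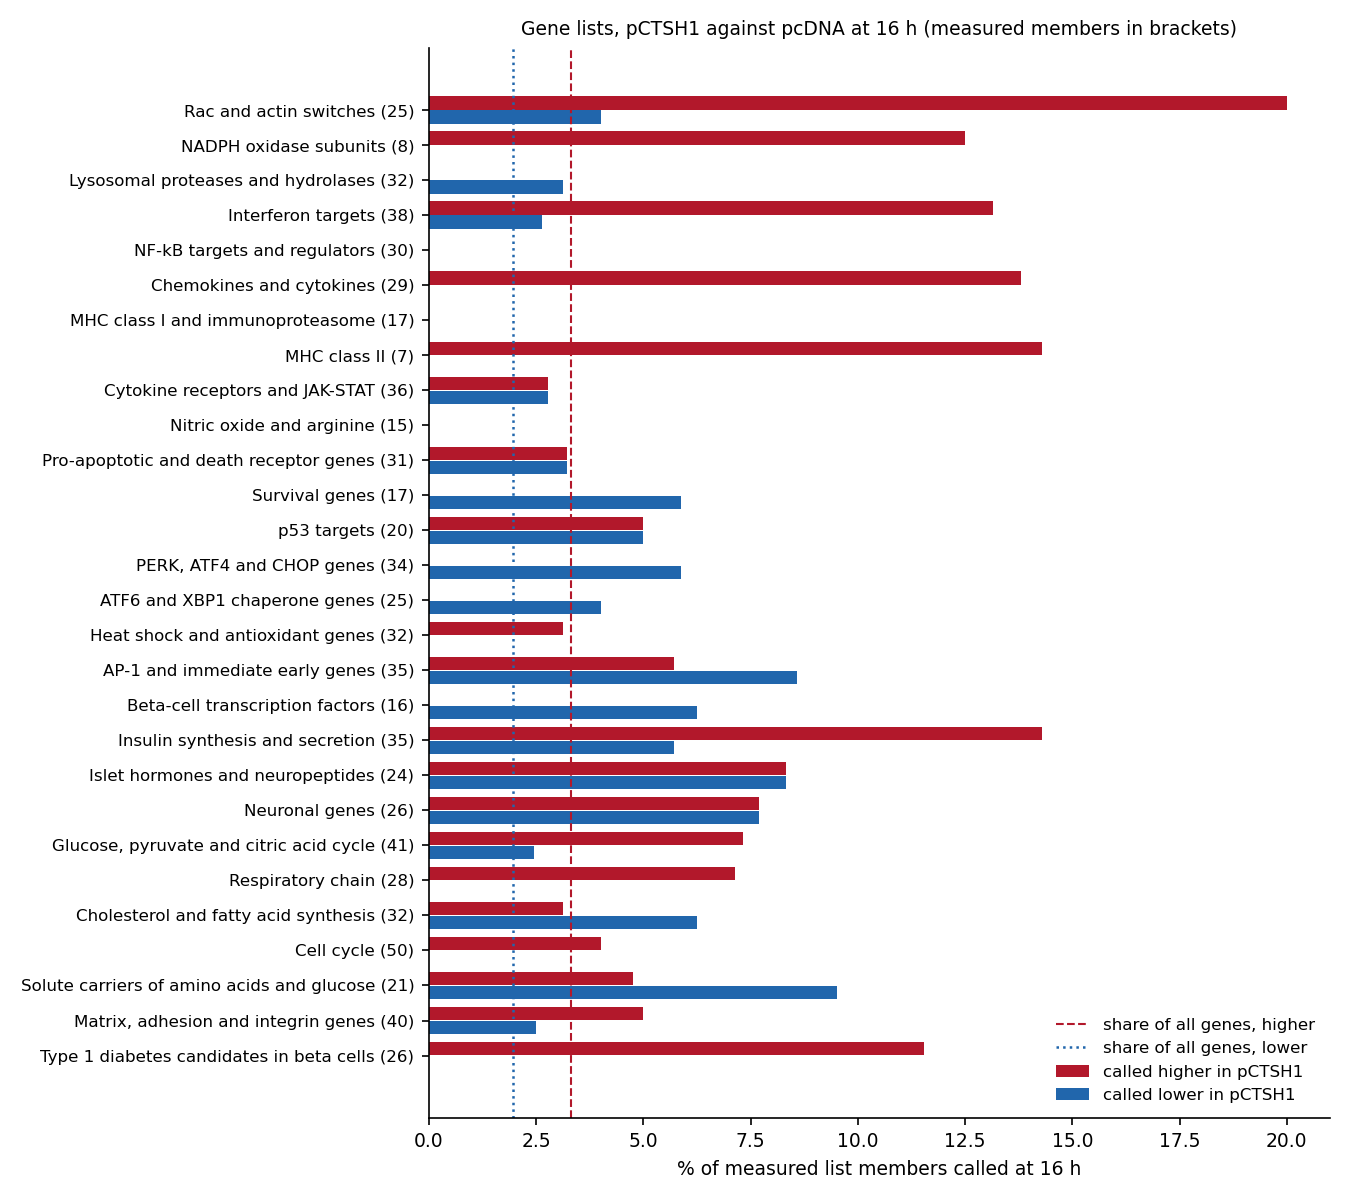
Percent of the measured members of each functional list (number in brackets) called higher (red) and lower (blue) in pCTSH1 cells at 16 h. The dashed and dotted lines mark the 3.32% of all genes called higher and the 1.96% called lower; the bars for Rac and actin switches, interferon targets, chemokines and insulin secretion pass the dashed line, each with 4 or 5 genes, and the other red bars that pass it hold 1 to 3 genes each.

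Cell death, survival and p53 lists are given beside the 5.28% of all genes called. Pro-apoptotic and death receptor genes had 1 of 31 higher and 1 lower (6.45% called), near that share. Hrk, the BH3-only protein also called DP5, measured 6.14, 6.22 and 6.12 in pCTSH1 cells, against 6.96, 6.62 and 6.84 in pcDNA cells (-0.64, adjusted p = 0.00292). Casp1, the inflammatory caspase, was at the controls on all 3 pcDNA arrays and higher in pCTSH1 cells by at least 1.23-fold (adjusted p = 0.0377), a call lost in 4 of the 6 fits that left out 1 array. The death receptor Fas averaged 9.58 ± 0.08 in pCTSH1 and 9.56 ± 0.08 in pcDNA cells and was not called, while at 0 h it was lower in pCTSH1 cells (-0.87, adjusted p = 0.000277). Of 17 survival genes, Irs2, an adaptor of insulin signalling, was lower (-0.59, adjusted p = 0.000541) and no other was called (5.88% called). Among 20 p53 targets, Perp was higher by 0.44 and Mdm2 fell by 0.35 (10% called).

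The PERK, ATF4 and CHOP list had 2 of 34 members lower and none higher (5.88% called), with a median of -0.15. Eif2ak3, the kinase PERK itself, averaged 9.45 ± 0.09 in pCTSH1 and 10.10 ± 0.12 in pcDNA cells, a difference of -0.65 (adjusted p = 0.0137) that lost its call without pcDNA replicate 1 or 2. Vldlr, a lipoprotein receptor, averaged 10.50 ± 0.13 in pCTSH1 and 10.97 ± 0.08 in pcDNA cells (-0.46, adjusted p = 0.00542). Ddit3, the stress factor CHOP, measured 12.17, 12.22 and 12.09 in pCTSH1 cells, against 12.34, 12.39 and 12.29 in pcDNA cells. The groups did not overlap, but the difference of -0.18 was not called (adjusted p = 0.397), whereas at 6 h it was -0.88 (adjusted p = 1.1e-05). The ATF6 and XBP1 list had 1 of 25 lower, the chaperone Dnajc3 (-0.35, adjusted p = 0.0351). Heat shock and antioxidant genes had 1 of 32 higher, the thioredoxin reductase Txnrd1 (0.32, adjusted p = 0.0273). The calls of Dnajc3 and Txnrd1 were each lost in 4 of the 6 fits that left out 1 array.

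AP-1 and immediate early genes had 2 members higher and 3 lower of 35 (14.3% called), with a median of -0.06. Egr1, a rapidly induced zinc finger factor, averaged 7.84 ± 0.19 in pCTSH1 and 7.10 ± 0.10 in pcDNA cells (0.74, adjusted p = 0.000635). Dusp5, a phosphatase of ERK, was higher with all pcDNA arrays at the controls (at least 1.27-fold, adjusted p = 0.0162), a call lost without pCTSH1 replicate 3 or pcDNA replicate 2. The lower members were Spry2, given above, and Dusp8 and Klf6, which each fell by 0.36 on the log2 scale. The calls of Dusp8 and Klf6 were lost in 3 and 4 of the 6 fits that left out 1 array.

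Beta cell genes moved in both directions. Insulin synthesis and secretion genes had 5 members higher and 2 lower of 35 (20% called), with a median of 0.05. Ins2, 1 of the 2 rat insulin genes, measured 13.16, 13.10 and 13.01 in pCTSH1 cells, against 12.53, 12.33 and 12.20 in pcDNA cells. The difference was 0.74 ± 0.08, or 1.67-fold (adjusted p = 1.96e-05). Ins1 averaged 13.55 ± 0.05 in pCTSH1 and 13.58 ± 0.01 in pcDNA cells and was not called, at a level close to the highest value of the table, 13.99. The syntaxin Stx1a of the exocytosis machinery was higher by 0.53 (adjusted p = 0.00784), and it lies in the stretch of chromosome 12 that was higher. Pcsk1n (0.53), Sytl4 (0.62) and the glucose transporter Slc2a2 (0.27) were called higher, and these calls were lost in 3, 4 and 6 of the 6 fits that left out 1 array.

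The lower members were Syt4, a vesicle synaptotagmin, and Kcnj11, the pore of the beta cell KATP channel. Syt4 measured 8.24, 8.27 and 8.46 in pCTSH1 cells, against 8.96, 9.003 and 9.07 in pcDNA cells (-0.69, adjusted p = 0.000213), and Kcnj11 fell by 0.42 (adjusted p = 0.00609). Of 16 beta cell transcription factors 1 was called, Myt1 (-0.38, adjusted p = 0.00832). Pdx1, the master regulator of beta cells, averaged 7.96 ± 0.03 in pCTSH1 and 7.74 ± 0.16 in pcDNA cells and was not called. Islet hormones and neuropeptides had Npy and Vgf higher and Tac1 and Cck, the cholecystokinin precursor, lower of 24 (16.7% called). The granule protein Vgf averaged 11.37 ± 0.11 in pCTSH1 and 10.82 ± 0.21 in pcDNA cells, and Cck 7.96 ± 0.03 and 8.40 ± 0.10 in the same order. Vgf also lies in that stretch of chromosome 12.

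Metabolic, cell cycle and transporter lists held between 2 and 4 calls each. In cholesterol and fatty acid synthesis, 1 of 32 was higher and 2 lower (9.38% called). Scd2, a fatty acid desaturase, measured 9.72, 9.78 and 9.88 in pCTSH1 cells, against 10.76, 10.71 and 10.74 in pcDNA cells, a difference of -0.95 (adjusted p = 0.00259). Its other, dimmer probe sets gave -0.52, -0.23 and -0.04, none called. Srebf1, the regulator of lipid synthesis, fell by 0.48 and its relative Srebf2 was higher by 0.40, and each call was lost in 5 of the 6 fits that left out 1 array. In glucose, pyruvate and citric acid cycle genes, pyruvate carboxylase Pc (0.47), Mdh2 (0.35) and Pdk2 (0.43) were higher and the glucose transporter Slc2a1 (-0.46) lower of 41 (9.76% called). Of these the call of Pc alone held whichever array was left out. Respiratory chain genes had Sdhc (0.40) and Ndufa4 (0.31) higher of 28 (7.14% called), and cell cycle genes Ccnb2 (0.35) and Cdkn2c (0.29) higher of 50 (4% called). The call of Sdhc held whichever array was left out, while those of Ndufa4, Ccnb2 and Cdkn2c were lost in 3, 4 and 5 of the 6 fits. Of the solute carriers, 1 of 21 was higher and 2 lower (14.3% called), and the amino acid transporters Slc38a1 and Slc6a15 each fell by 0.65 on the log2 scale. The Slc38a1 call held in all 6 of these fits, and the Slc6a15 call was lost in 4. Cox6a2, a cytochrome oxidase subunit of muscle, averaged 5.82 ± 0.23 in pCTSH1 and 7.002 ± 0.32 in pcDNA cells (-1.18, adjusted p = 0.00119).

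Matrix, adhesion and integrin genes had 2 members higher and 1 lower of 40 (7.5% called). The epithelial cadherin Cdh1 measured 10.87, 10.85 and 10.88 in pCTSH1 cells, against 10.28, 10.24 and 10.38 in pcDNA cells (0.57, adjusted p = 0.000614). Fibronectin, Fn1, fell by 0.63 (adjusted p = 0.0015), and its difference at 0 h was -0.56. Neuronal genes had 2 higher and 2 lower of 26 (15.4% called), the largest of which was Rbfox3, a splicing factor, at 0.77 (adjusted p = 0.0445). The Rbfox3 call was lost in 4 of the 6 fits that left out 1 array, and it was not called in the 6 arrays alone (adjusted p = 0.196). Among 26 measured type 1 diabetes candidate genes, Rac2, Sh2b3 and Cenpw were higher and none lower (11.5% called), and the Cenpw call was lost in 3 of the 6 fits. In both lines 7 of the 26 were at the nonspecific controls on at least 2 of 3 arrays. Sh2b3, an adaptor that dampens cytokine signalling, averaged 10.95 ± 0.05 in pCTSH1 and 10.48 ± 0.05 in pcDNA cells (0.47, adjusted p = 0.0037).

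Since Rac2, Coro1a and several chemokines are known from blood cells, markers of other cell types were read beside them. Of 14 leukocyte markers, 9 were at the nonspecific controls on at least 2 of 3 arrays of each line, Ptprc, Cd3e, Csf1r and Itgam among them. The summed linear level of the 14 was 264 to 279 on pCTSH1 arrays and 220 to 258 on pcDNA arrays. The 1 called leukocyte marker was Coro1a, an actin-binding protein, at 6.23, 5.89 and 6.39 in pCTSH1 cells, against 5.15, 5.16 and 5.88 in pcDNA cells (0.78, adjusted p = 0.013). Its call was lost in 3 of the 6 fits that left out 1 array. Fibroblast and stellate cell markers had Acta2 higher of 15 (6.67% called), and duct cell markers Krt18 lower of 9 (11.1% called). Alpha, delta, pancreatic polypeptide, acinar and endothelial markers had no call among 38. These shares, and the 7.14% of leukocyte markers, stand beside 5.28% of all genes called. With so few members per list, the counts are not a result about cell types. The calls of Acta2 and Krt18 were lost in 5 and 2 of the 6 fits. Actb, often used as a reference gene, averaged 13.39 ± 0.03 in pCTSH1 and 13.22 ± 0.02 in pcDNA cells and was not called (adjusted p = 0.146).

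Genes called higher were not spread evenly over the genome. In the order of genes of the RefSeq assembly GRCr8, 13382 measured genes could be placed. Runs of at least 5 neighbouring measured genes with differences of 1 sign and at least 3 calls numbered 22, of which 9 were on chromosome 12 and 8 on chromosome 13. From the first to the last such run, chromosome 12 from Uspl1 to Tyw1 held 196 measured genes, 61 called higher and none lower (31.1% and 0%). Chromosome 13 from Fcgr3a to Lamb3 held 136, with 54 higher and 2 lower (39.7% and 1.47%). These 332 genes, 2.48% of those placed, held 115 of the 444 placed genes called higher (25.9%) and 2 of the 264 called lower. The ends of both stretches were set from these data, and no test was made of them.

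**Figure D5:**
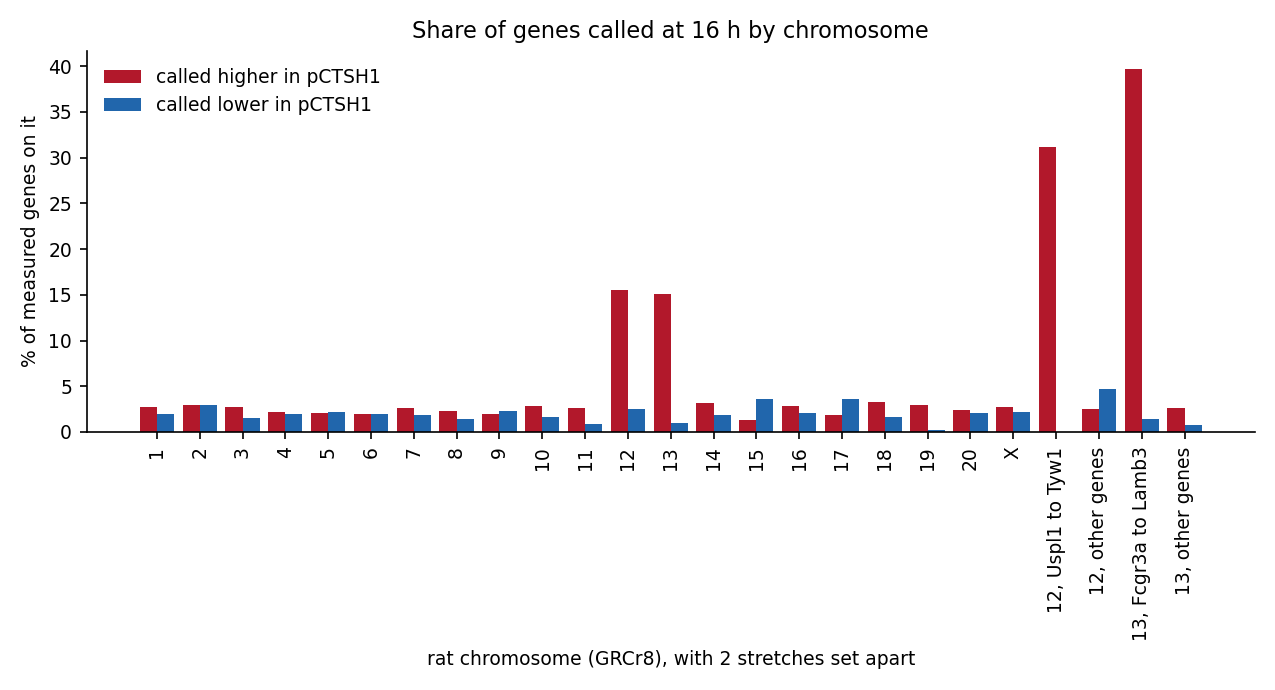
Percent of the measured genes of each rat chromosome called higher (red) and lower (blue) in pCTSH1 cells at 16 h, with the 2 stretches and the rest of chromosomes 12 and 13 set apart on the right. The bars of called higher genes reach 31.1% and 39.7% in the stretches and stay at 2.54% and 2.62% in the rest of those chromosomes.

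The differences in the stretches were small and of about the same size at every time. On chromosome 12 the median difference was 0.22 at 0 h, 0.26 at 6 h and 0.23 at 16 h, and on chromosome 13 it was 0.33, 0.34 and 0.30. In untreated cells the median was 0.27 above untransfected INS-1 cells in pCTSH1 cells, against 0.03 in pcDNA cells, on chromosome 12. On chromosome 13 the same medians were 0.41 in pCTSH1 cells, against 0.08 in pcDNA cells. Without both stretches, 329 of 13050 placed genes were called higher (2.52%) and 262 lower (2.01%). Genes described above that lie in the stretches are Rac1, Limk1, Stx1a, Vgf, Mdh2, Actb and Sdhc, and Rac2, Nox1 and the other genes among the 20 highest and 20 lowest lie outside them.

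The 5 other runs, of 6 to 9 genes each, lay on chromosomes 6, 10, 14 and X. On chromosome 14 the neighbours Mthfd2l, Cxcl2, Cxcl1 and Cxcl3 were called higher in a run of 6 genes with a median of 0.54, where the median was 0.11 at 0 h and -0.08 at 6 h. On chromosome 6 Ifi27l2b, Serpina10 and Serpina6 were called lower in a run of 7 with a median of -0.41. On chromosome 10 Rasd1, Rai1 and Srebf1 were lower in 1 run, and Arhgap27, Rprml and Nsf were higher in another. On chromosome X, Armcx3, Gprasp1 and Gprasp2 were lower in a run of 9 genes with a median of -0.18, similar to -0.16 at 0 h and -0.18 at 6 h.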

How the data were processed

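The deposited table holds log2 intensities for 31137 probe sets on 21 Affymetrix arrays, 1 per sample. The authors made these log2 values from biotin-labelled cRNA with RMA, affy and limma, per the submitters' processing notes, with versions and parameters not given in the sources used here. RMA equalises the distributions of the arrays, so a shift of all genes in 1 group would not be seen, and the number of arrays limits the precision. The 95 AFFX control probe sets were left out of the tests.

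A mean per group was fitted to all 21 arrays in 7 groups of 3 with limma 3.58.1 in R 4.3.3, with eBayes at default settings, so that all groups share the estimate of the spread. The adjustment by Benjamini-Hochberg ran over 31042 probe sets, two-sided, with a threshold of 0.05. Contrasts were pCTSH1 minus pcDNA at 16, 6 and 0 h, and the difference at 16 h minus that at 0 h or 6 h. On data simulated for the contrast at 16 h over 31042 probe sets, 48.0% of 100 probe sets changed by 0.5 (log2) and 96.0% of 100 changed by 1 were recovered, with 12 false calls. The simulated noise was normal, independent between arrays, and for each probe set had the same SD in all groups. Replicates at 16 h were farther apart than those at 6 h, so these rates may not hold for the measured contrast.

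GEO's platform annotation gave 19063 probe sets a single symbol, 572 several, and did not list 11407. Symbols were updated through Entrez numbers to the RefSeq table of GRCr8, which 13382 of 13438 genes matched. The brightest probe set over all arrays represents a gene. Of the 1181 called probe sets at 16 h (3.8% of those tested, 722 higher and 459 lower), 325 had no single symbol and are not named. A probe set counted as at the nonspecific controls when it did not exceed the brightest of 21 such controls on its array, and where this held on at least 2 of 3 arrays of the dimmer group the fold is a lower bound.

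Named are the 20 highest and 20 lowest genes called with arrays that did not overlap, the genes with the largest called changes of the difference (8 each way from 0 h, 5 each way from 6 h), up to 6 members of each list by lowest p, and Ctsh, Rac2, Nox1, Nos2, Ins1, Ins2, Fas, Ddit3 and Actb. Neighbouring genes are named from the runs that hold them. A gene of these lists and a promoter motif are not reported here. Genes, lists and comparisons were chosen with earlier results of these data known. Other settings tried were a replicate block, median centring, cyclic loess, the brighter 50% of probe sets, trend and robust eBayes, array weights, the arrays compared alone, the mean of a gene's probe sets, each array left out and a minimum difference of 1. Figures were drawn with matplotlib 3.10.9.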

Additional observations from a re-analysis of the deposited data

Results flagged for a closer look

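The difference between pCTSH1 and pcDNA cells was compared between times with limma's contrast of differences, with Benjamini-Hochberg adjustment over all probe sets, for the genes named at 16 h. Of those, 20 passed for 16 h minus 0 h and 17 for 16 h minus 6 h, with adjusted p from 3.66e-07 to 0.0479. Many of these genes were named because their called change was among the largest, so their passing was set by that choice. Of all 13438 genes, 37 (0.275%) passed for 16 h minus 0 h and 50 (0.372%) for 16 h minus 6 h. All values below are log2 changes of the difference, and a positive one means that pCTSH1 cells stood higher relative to pcDNA cells at 16 h than at the earlier time.

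From 0 h the change was positive for Nox1 (2.33), Elmod1 (1.47), Rac2 (1.46), Phf11 (1.28), Cav1 (1.28), Myb (1.16), Ciita (1.02), Mmd (1.02), Depp1 (1.00), Vps53 (0.94), Egr1 (0.89) and Cxcl3 (0.53). It was negative for Ptgs1 (-2.70), Gna15 (-2.40), Cyria (-2.16), Ttn (-1.93), Spry2 (-1.24), Ano3 (-1.13), Runx1t1 (-1.03) and Cnnm2 (-1.02). Runx1t1, a transcriptional corepressor, was higher in pCTSH1 cells at every time, by 1.57 at 0 h, 1.05 at 6 h and 0.54 at 16 h. Its call at 16 h was kept in 1 of the 6 fits that left out 1 array. Its other probe sets gave 0.17, 0.43 and 0.50 at 16 h, none called. Cnnm2, a magnesium transport protein, had differences of 0.17 at 0 h, 0.45 at 6 h and -0.85 at 16 h. Depp1 averaged 4.53 ± 0.18 in pCTSH1 and 4.49 ± 0.24 in pcDNA cells at 0 h, and 8.97 ± 0.16 in pCTSH1 and 7.94 ± 0.15 in pcDNA cells at 16 h (SD, n = 3 each).

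From 6 h the change was positive for Elmod1 (1.44), Dmrta1 (1.23), Depp1 (1.14), Oas1b (1.09), Phex (1.09), Cxcl2 (0.99), Vps53 (0.97) and Cxcl3 (0.63). It was negative for Ppargc1a (-1.90), Gna15 (-1.80), Cyria (-1.74), Spry2 (-1.32), Cnnm2 (-1.31), Ackr3 (-1.06), Ano3 (-0.99), Nedd9 (-0.90) and Vldlr (-0.63). Dmrta1, a DM domain transcription factor, had a difference of -0.59 at 6 h and 0.64 at 16 h. Phex, a membrane endopeptidase, had a difference of -0.34 at 6 h and 0.75 at 16 h.

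Each change was refitted with each of its 12 arrays left out. From 0 h, 11 of the 20 changes kept their call in every such fit, and 9 did not (Rac2, Cav1, Phf11, Mmd, Depp1, Egr1, Cxcl3, Cnnm2 and Runx1t1). From 6 h, 10 of the 17 kept their call in every fit, and 7 did not (Ackr3, Ano3, Nedd9, Cxcl2, Vldlr, Dmrta1 and Phex). With only the arrays compared, 11 of the 20 changes from 0 h and 9 of the 17 from 6 h were called. Among those that kept their call above, this fit lost Vps53 (adjusted p = 0.0516) and Spry2 (0.0619) from 0 h, and Oas1b (0.0588) and Cnnm2 (0.0579) from 6 h. In at least 1 group compared, 2 or 3 arrays were at the nonspecific controls for Ptgs1, Gna15, Cyria, Ttn, Phf11, Cav1 and Cxcl3 from 0 h, and for Gna15, Cyria, Ppargc1a and Dmrta1 from 6 h, so these changes include values at the level of the controls. With 3 arrays a group, single arrays far from the others were not searched for.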

How the results depend on the processing

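None of the 108 genes described as called at 16 h changed direction under any alternative tried. That was largely fixed in advance, since the genes were chosen as called on these same arrays. The replicate block, the eBayes settings and the fit on the 6 arrays alone leave the difference itself unchanged. Leaving out each of the 6 arrays in turn kept 74 of the 108 calls in every fit, and single fits lost between 13 and 28. The fit on the 6 arrays alone kept 48 of the 108, the brighter 50% of probe sets kept all of the 94 that could be tested there, and the other alternatives lost between 1 and 9. Nos2 passed under median centring, cyclic loess, trend and robust eBayes and array weights and without pCTSH1 replicate 1 or pcDNA replicate 2, Actb with the brighter 50% and with trend and robust eBayes, and Ctsh with trend and robust eBayes and without pCTSH1 replicate 3 or pcDNA replicate 1.

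Of 1181 probe sets called at 16 h, 193 were called with only the arrays compared and 77 with a difference of at least 1, and leaving out 1 array gave 757 (without pcDNA replicate 2) to 1250. At 0 h the 582 calls became 284 with only the arrays compared, 71 with a difference of at least 1, and 384 (without pcDNA replicate 1) to 465 with 1 array left out. At 6 h the 887 calls became 961 with only the arrays compared and 1737 with array weights. They became 94 with a difference of at least 1, and 531 to 646 with 1 array left out. For the change from 0 h the 66 calls became 110 with the brighter 50%, 120 with trend and robust eBayes, 30 with only the arrays compared, 31 with a change of at least 1, and 36 (without pCTSH1 replicate 1 at 0 h) to 77 with 1 array left out. For the change from 6 h the 83 calls became 193, 212, 46 and 31 under the same settings, 210 with array weights, and 41 to 130 with 1 array left out. The causes of these shifts were not tested.

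Same-numbered pCTSH1 and pcDNA arrays correlated in their deviations from the group means at 0.106, 0.124 and 0.239 at 0 h, at 0.090, 0.084 and 0.206 at 6 h, and at 0.040, 0.079 and 0.244 at 16 h. All 3 were over 0.1, the level set for counting the numbers as pairs, at 0 h and not at 6 or 16 h. The main fit used no block at any time, so its differences and calls at 0 h do not use this pairing. At 0 and 6 h every array correlated best with its own number, a hint from the data and not from the labels, while at 16 h pCTSH1 replicate 1 correlated best with pcDNA replicate 2 (0.112). At 0 h the block added the calls of Cav1 (adjusted p = 0.0288), Cdh1, Vgf, Dnajc3 and C9, lost that of Ppargc1a (0.0522), and changed no other call of a named gene. With the replicate number as a block 1357 probe sets were called at 16 h, 644 at 0 h, 963 at 6 h, 77 for the change from 0 h and 122 for that from 6 h. Another background correction was not run, since it needs scanner files, which were not used here. Signals near the nonspecific controls, such as those of Cyria and Ppargc1a in pCTSH1 cells, limit the folds to bounds. For Ctsh, with arrays of both lines at the controls, no fold was given.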
